A study of Homo sapiens with 6 samples.

Results

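The nuclear genes for the subunits of the respiratory chain (complexes I to IV) and of ATP synthase (complex V) were compared between MAP30-treated and control T24 cells. Members were the protein-coding genes whose symbols begin with NDUFA, NDUFB, NDUFC, NDUFS or NDUFV and a digit, UQCR, COX4 to COX8, ATP5F, ATP5M or ATP5P, plus the SDHA to SDHD genes, wherever a probe set of the array named that gene alone. This gave 81 genes of the 18132 measured: 35 of complex I, 3 of complex II, 8 of complex III, 17 of complex IV and 18 of complex V. SDHB, UQCRFS1 and NDUFA4 are not analysed here, and neither are the subunits encoded in the mitochondrial genome.

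T24 is an established cell line from a human urothelial bladder carcinoma. In 3 arrays the RNA came from T24 cells treated with 10 µg/ml MAP30, a ribosome-inactivating protein from bitter melon (Momordica charantia), and collected at 48 hours. In the other 3 arrays it came from normal (control) T24 cells, grown in the same DMEM with serum; what they received in place of MAP30 is not stated by the labels. The labels do not tie replicates to cultures of their own, so the scatter that the p-values are set against may be technical. RNA from fewer cells and less RNA per cell cannot be told apart in such bulk samples.

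Oxidative phosphorylation takes place in the inner mitochondrial membrane. Complex I accepts electrons from NADH and complex II from succinate; both pass them through ubiquinone to complex III, and cytochrome c carries them on to complex IV, which reduces oxygen. Complexes I, III and IV pump protons, and ATP synthase lets the protons flow back to make ATP. Most subunits are encoded in the nucleus, and their promoters are known for binding sites of the transcription factors NRF1, GABP (an ETS family factor) and YY1.

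The array values are log2 expression, deposited so that every probe set has a median of 0 across the 6 arrays. A value of -0.40 therefore means 0.40 below that gene's own median, and levels of different genes cannot be compared. A gene was called when its limma adjusted p was under 0.05, with Benjamini-Hochberg adjustment over all 18132 genes. Scaling matters for changes as small as most of these. With MAP30, spiked-in hybridization controls stood 0.21 higher (mean log2 difference of 18 probe sets) and poly-A controls 0.16 lower (24 probe sets), so that centring on either set moves every gene by that amount. The log2 ratio of 3' over 5' control probe sets was also higher with MAP30, by 0.16 for ACTB and by 0.04 for GAPDH; its part in the results was not tested. Of 13 leukocyte, endothelial and fibroblast markers, ITGAM (2.76), KDR (0.22) and COL1A1 (0.14) were called higher and CD14 (-0.26) lower, as log2 fold changes. Of 12 epithelial and urothelial markers GATA3 (2.12), EPCAM (0.96) and PPARG (0.91) were higher and KRT7 (-1.03) and KRT8 (-0.47) lower. The part of these changes in the results was not tested. Whether any marker is present or absent cannot be read from centred values.

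NRF1 and YY1 themselves were lower with MAP30, as described further on, and their part in the changes of the subunit genes was not tested. The promoters below are examples picked after values were seen among members with large or contrasting changes and do not stand for all subunit genes. Each is the 150 bases before the transcription start in RefSeq (GRCh38.p14, all on the + strand), written 5′ to 3′. Capitals mark matches, on either strand, to the NRF1 motif (GCGCA and GCGC with any single base between them).
SDHA, chr5:218170-218319: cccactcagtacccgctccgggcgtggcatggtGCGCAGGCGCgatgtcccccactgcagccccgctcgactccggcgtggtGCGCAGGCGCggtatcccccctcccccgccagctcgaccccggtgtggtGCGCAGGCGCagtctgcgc
ATP5F1C, chr10:7788027-7788176: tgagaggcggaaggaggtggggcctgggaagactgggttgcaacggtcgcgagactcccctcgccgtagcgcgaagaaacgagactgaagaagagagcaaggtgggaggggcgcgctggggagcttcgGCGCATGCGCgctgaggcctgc
NDUFB2, chr7:140696558-140696707: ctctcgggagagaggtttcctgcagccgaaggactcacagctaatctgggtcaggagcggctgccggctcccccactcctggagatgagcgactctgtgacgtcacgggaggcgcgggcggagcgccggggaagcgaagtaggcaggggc
COX8C, chr14:93347032-93347181: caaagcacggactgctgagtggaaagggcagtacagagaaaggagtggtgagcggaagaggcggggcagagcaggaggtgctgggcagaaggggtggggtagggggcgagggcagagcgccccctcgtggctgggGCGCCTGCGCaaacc
In SDHA the motif begins 117, 68 and 19 bases before the start, in ATP5F1C 22 bases and in COX8C 15 bases before it. The NDUFB2 stretch holds none. In the 300-base promoter windows described further on, 24.2% of the subunit genes held the motif. NDUFB6 (-0.75), ATP5MC2 (-0.75) and NDUFB7 (-0.73) fell more than SDHA (-0.35), have no match in their windows and are not printed.

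Most subunit genes were lower with MAP30, by small amounts. Of the 81 genes, 50 fell, 11 rose and 20 did not pass, while among all genes 30.6% were called lower and 26.9% higher (57.5% called in either direction). The median log2 fold change of the subunit genes was -0.20 (quartiles -0.33 and -0.02) against -0.02 for all genes. The range was narrow, with the strongest fall at -0.96 (ATP5F1C, the gamma subunit of ATP synthase) and the strongest rise at 0.60 (COX8C, a complex IV subunit isoform). A change of 1.5-fold or more was reached by 8 subunit genes that fell and by 1 that rose, where 10.9% of all genes fell and 11.2% rose by that much. MAP30 and control arrays did not overlap in 70 of the 81 genes, against 62.6% of all genes.

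The count of falls depended on scaling. Centred on the hybridization controls, 66 subunit genes were lower and 3 higher, against 63.7% and 17.0% of all genes. Centred on the poly-A controls, 28 were lower and 25 higher, against 20.7% and 49.1% of all genes. The subunit median stood 0.18 below the median of all genes on each of these scales (difference -0.18), as it must when every gene is moved by the same amount. On all 3 scales 28 subunit genes were called lower, where 20.7% of all genes were: 15 of them in complex I, 3 in complex II, 1 in complex III (UQCR10), 2 in complex IV (COX6B1 and COX6C) and 7 in complex V. COX8C, NDUFV2 and NDUFV3 were the 3 called higher on all of them, where 17.0% of all genes were. Thus 22 of the falls did not pass on the poly-A-control scale, and 8 of the rises did not pass on the hybridization-control scale.

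**Figure D1:**
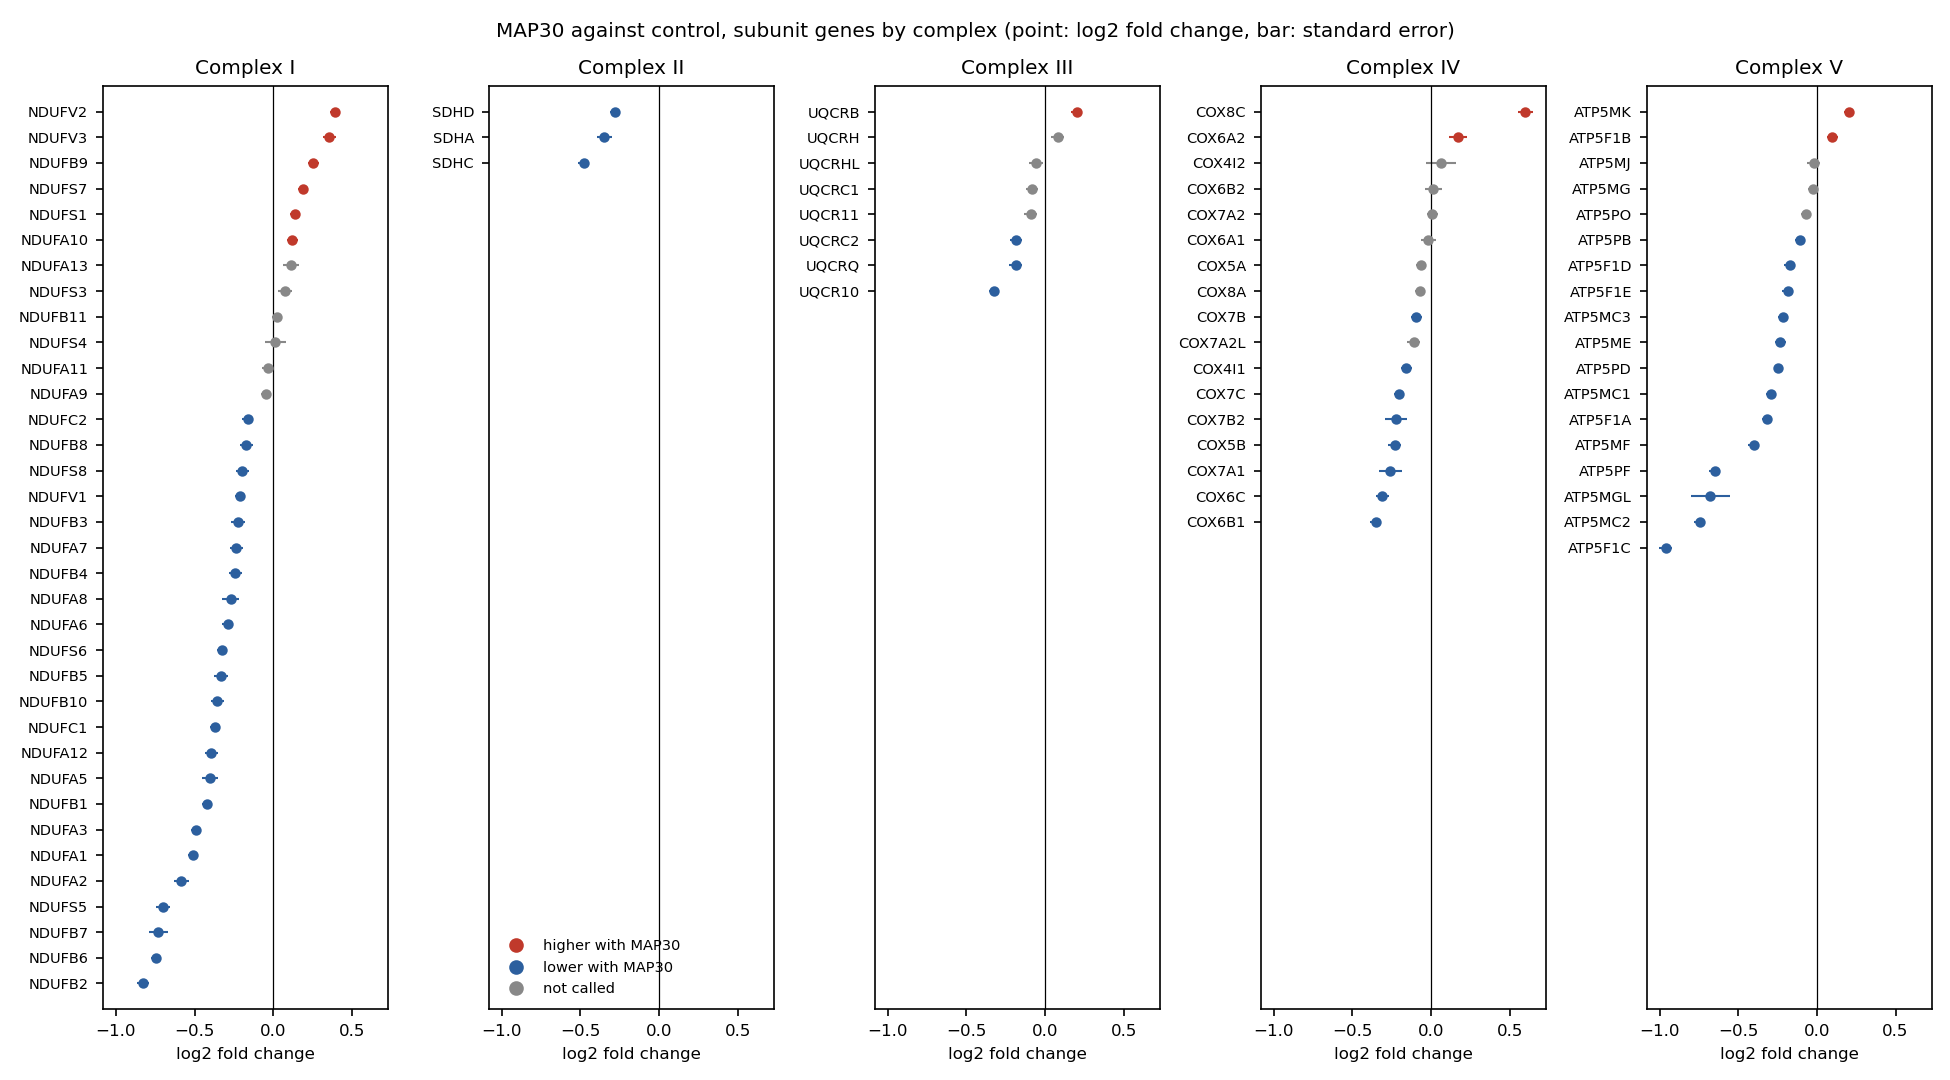
Log2 fold change (MAP30 over control, x axis) of each subunit gene, by complex; points are fitted values, bars standard errors from limma (n = 3 arrays per group), and colour gives the call. Complexes I and V reach furthest down, to -0.83 for NDUFB2 and -0.96 for ATP5F1C, and all 3 genes of complex II lie below 0.

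The median log2 fold change was -0.35 for complex II (3 lower of 3), -0.23 for complex I (6 higher, 23 lower of 35) and -0.22 for complex V (2 higher, 13 lower of 18). It was -0.09 for both complex III (1 higher, 3 lower of 8) and complex IV (2 higher, 8 lower of 17). Of all genes 26.9% were higher and 30.6% lower, and the share lower in complex III (37.5%) was near the latter. The complex II median is the value of SDHA, whose probe sets disagreed, as described further on. Centred on the poly-A controls, the medians of complexes III and IV turned to 0.08 and 0.07, while those of complexes I, II and V remained below 0 at -0.07, -0.18 and -0.06. No test of the difference between complexes was made.

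**Figure D2:**
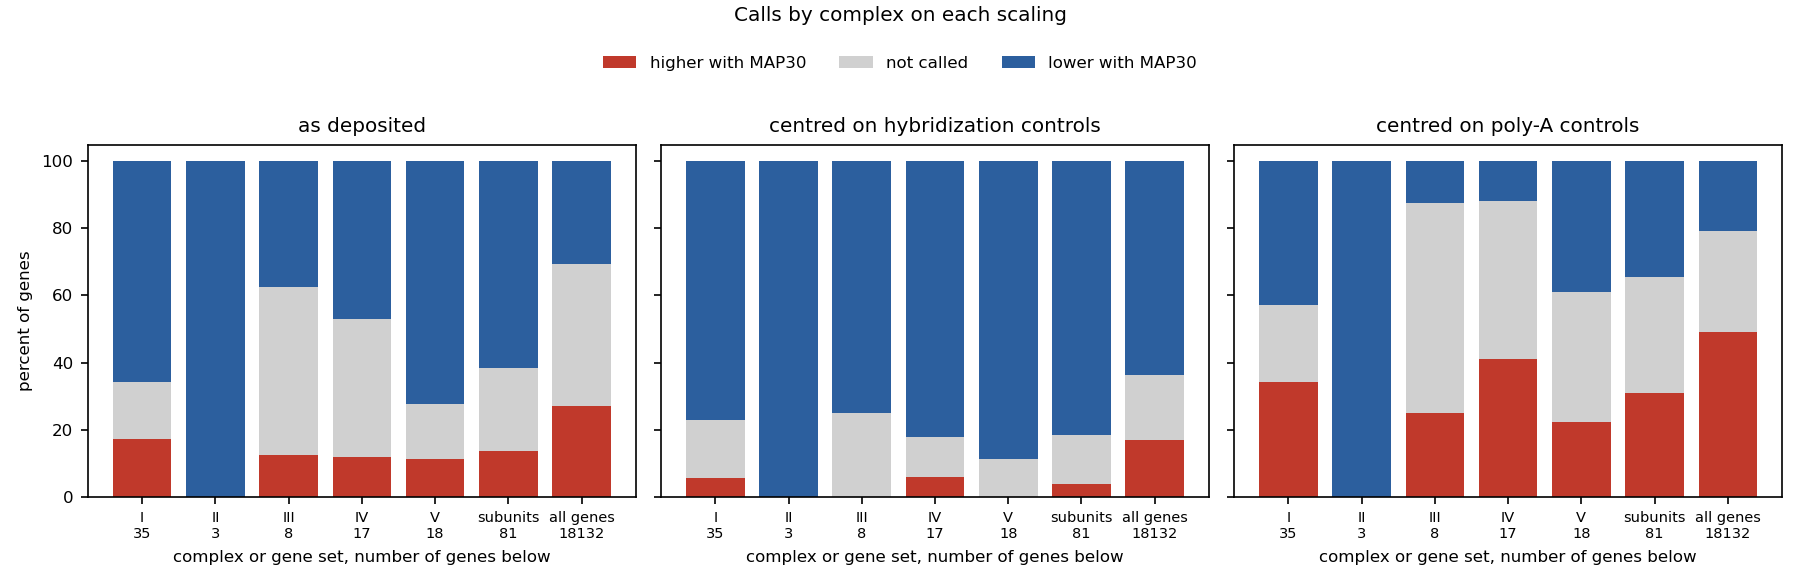
Percent of genes called higher, not called and called lower with MAP30 (y axis), for complexes I to V, all 81 subunit genes and all 18132 genes, on the deposited scale and on both spike-in scales. The share called lower among subunit genes was 61.7% as deposited, 81.5% centred on hybridization controls and 34.6% centred on poly-A controls, against 30.6%, 63.7% and 20.7% of all genes.

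Complex I is built from an arm in the matrix that oxidises NADH (N module) and reduces ubiquinone (Q module), and from a membrane arm that pumps protons. In the distal membrane arm 9 of 11 genes fell and 1 rose, with a median of -0.33, where 30.6% of all genes fell and 26.9% rose. NDUFB2, an accessory subunit there, read -0.43, -0.47 and -0.38 in the MAP30 arrays, against 0.43, 0.39 and 0.38 in the control arrays. It was 1.77-fold lower (log2 fold change -0.83 ± 0.04 SE, limma adjusted p = 7.3e-07), and the groups lay far apart. NDUFB6, of the same arm, read -0.40, -0.34 and -0.38 with MAP30, against 0.38, 0.36 and 0.37 in control (1.68-fold lower). NDUFB7 (-0.73) followed, and the remaining falls of the arm ran from -0.42 for NDUFB1 to -0.17 for NDUFB8. NDUFB11 (0.03) did not pass.

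NDUFB9 was the exception in the distal arm. It rose by 0.26, with all 4 of its probe sets higher, but stood at 0.05 without passing on the hybridization-control scale. In the proximal membrane arm 6 of 9 genes fell and 1 rose, where 30.6% of all genes fell and 26.9% rose. The falls were led by NDUFS5 (-0.70), NDUFA1 (-0.51) and NDUFA3 (-0.49), with NDUFC1 (-0.37), NDUFA8 (-0.27) and NDUFC2 (-0.16) after them. The fall of NDUFC2 rested on 1 of 3 probe sets (-0.40, with the others at -0.08 and -0.00), and neither the median over probe sets (-0.11) nor the poly-A-control scale (0.00) gave a call. Arrays of a group differed little in NDUFA3, which read -0.24, -0.25 and -0.23 with MAP30, against 0.26, 0.24 and 0.24 in control. NDUFA13 (0.12), also known as GRIM-19, and NDUFA11 (-0.03) did not pass, and NDUFA10 rose by 0.12. The last call was lost without MAP30 replicate 2 or control replicate 3 (0.11 in both) and turned to -0.09 without passing on the hybridization-control scale.

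The core subunits, which carry the flavin and the iron-sulfur clusters and have counterparts in bacteria, were called in both directions on the deposited scale. Of 6 core genes 3 rose and 2 fell (median 0.11), whereas of 29 accessory genes 3 rose and 21 fell (median -0.29). Of all genes 26.9% rose and 30.6% fell. The direction of the core median depended on scaling, at -0.10 with hybridization-control centring, and the difference was not tested. On that scale 1 core gene was higher and 2 lower, where 17.0% and 63.7% of all genes were. On the poly-A-control scale 4 core genes were higher and 0 lower, where 49.1% and 20.7% of all genes were. NDUFV2, which holds an iron-sulfur cluster near the flavin, read 0.18, 0.21 and 0.20 with MAP30, against -0.19, -0.18 and -0.22 in control. It was 1.31-fold higher (0.39 ± 0.03 SE, limma adjusted p = 1.68e-05), on a single probe set. Its partner NDUFV1, the flavin-bearing subunit, fell by 0.21, to -0.09, -0.10 and -0.12 in MAP30 arrays, against 0.09, 0.10 and 0.13 in control arrays. On the poly-A-control scale NDUFV1 was at -0.05 and did not pass.

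NDUFV3, an accessory subunit next to the flavin site, rose 1.28-fold with all 3 probe sets higher. It read 0.18, 0.23 and 0.14 with MAP30, against -0.18, -0.12 and -0.22 in control. The core genes NDUFS1 (0.14) and NDUFS7 (0.19) also rose, with NDUFS1 higher in 4 of 5 probe sets. The rise of NDUFS7 came from 1 of 4 probe sets (0.72), and the others stood at -0.02, 0.02 and 0.02 without passing. NDUFS7 read 0.11, 0.12 and 0.08 with MAP30, against -0.08, -0.08 and -0.09 in control. NDUFS1 read 0.05, 0.07 and 0.06 with MAP30, against -0.10, -0.07 and -0.07 in control. Neither passed on the hybridization-control scale (-0.07 for NDUFS1 and -0.02 for NDUFS7), and NDUFS7 was at 0.04 without passing when the median over probe sets was used. NDUFS8, which carries iron-sulfur clusters, fell by 0.20, to -0.08, -0.15 and -0.06 in MAP30 arrays, against 0.10, 0.07 and 0.12 in control arrays. It was at -0.03 and did not pass on the poly-A-control scale. NDUFS3 (0.08) did not pass, at 0.08, 0.01 and 0.02 with MAP30, against -0.00, -0.01 and -0.11 in control. Of the accessory subunits of the matrix arm, NDUFA2 (-0.58), NDUFA5 (-0.40), NDUFA12 (-0.39), NDUFS6 (-0.32), NDUFA6 (-0.29) and NDUFA7 (-0.23) fell, and NDUFS4 (0.01) and NDUFA9 (-0.04) did not pass.

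**Figure D3:**
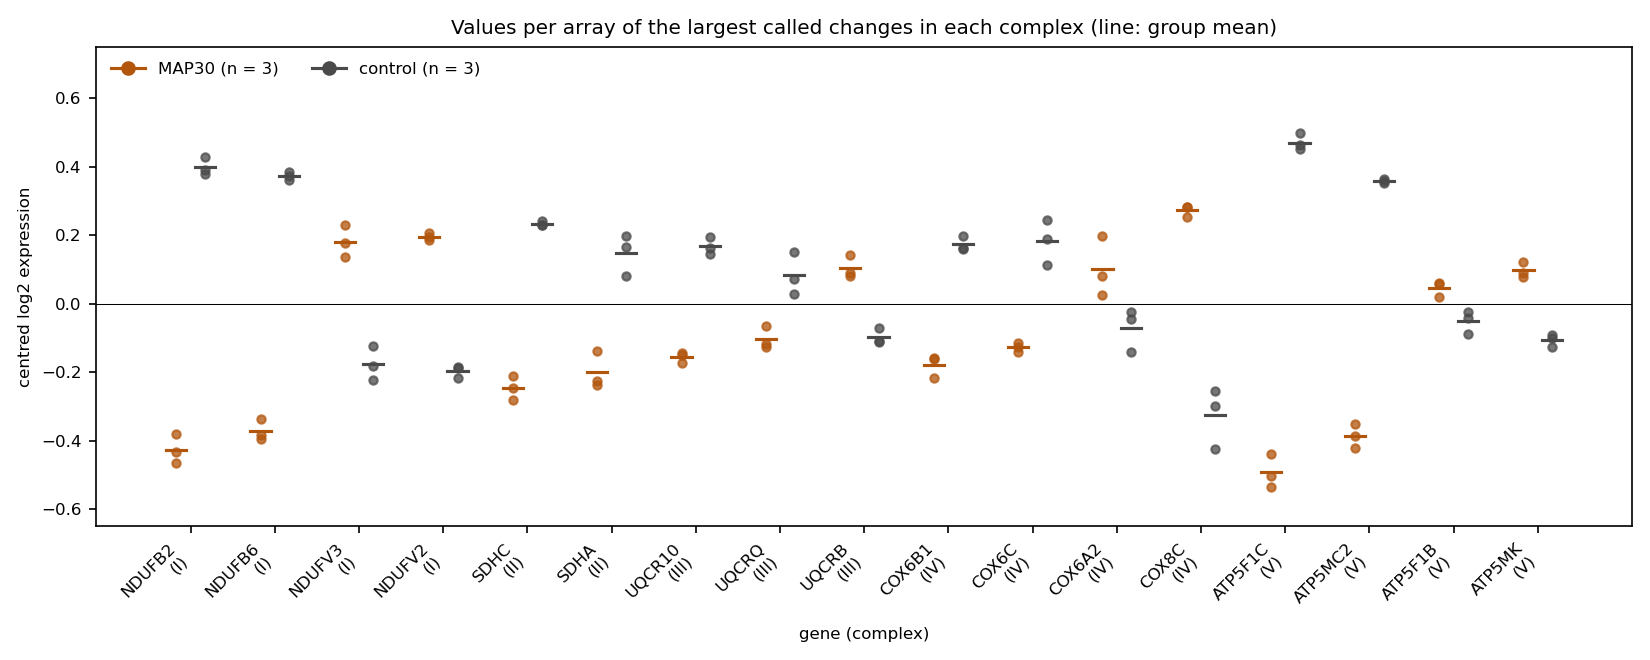
Centred log2 expression (y axis) in each array of the genes with the largest called rise and fall in each complex, MAP30 left of control; points are arrays (n = 3 per group) and lines are group means. In none of the 17 genes do the groups overlap, as in 62.6% of all genes. These genes were picked as the largest called changes, so their separation largely follows from that choice. The gap is widest for ATP5F1C and narrowest for ATP5F1B and COX6A2.

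Complex II links the citric acid cycle to the chain. SDHC, a membrane anchor that holds heme, read -0.28, -0.25 and -0.21 with MAP30, against 0.23, 0.24 and 0.23 in control. It was 1.39-fold lower (-0.48 ± 0.03 SE, limma adjusted p = 8.29e-06), with all 5 probe sets called lower. SDHD, the other anchor, fell by 0.28, to -0.17, -0.14 and -0.14 in MAP30 arrays, against 0.13, 0.13 and 0.11 in control arrays. SDHA, the flavoprotein that oxidises succinate, read -0.24, -0.23 and -0.14 with MAP30, against 0.17, 0.20 and 0.08 in control (-0.35 ± 0.05 SE). Its probe sets disagreed: a pair of class _x_at, which can cross-hybridise, stood at -0.66 and -0.65, and the remaining one, of class _at, at 0.27. All 3 were called, so the direction for SDHA rests on which probe set is read.

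In complex III, which passes electrons from ubiquinone to cytochrome c, 3 of 8 genes fell (37.5%) and 1 rose (12.5%). The share that fell was near the 30.6% of all genes, and 26.9% of all genes rose. UQCR10, a small subunit, read -0.17, -0.14 and -0.15 with MAP30, against 0.20, 0.16 and 0.14 in control (-0.32 ± 0.03 SE, limma adjusted p = 6.8e-05). UQCRQ, another small subunit, read -0.06, -0.13 and -0.12 with MAP30, against 0.15, 0.07 and 0.03 in control. It fell by 0.19, as did the core protein gene UQCRC2, and UQCRC1 (-0.08) and UQCR11 (-0.09) did not pass. The fall of UQCRQ came from 1 of 3 probe sets (-0.46, beside -0.06 and -0.04); it was not called from the median over probe sets (-0.13) or on the poly-A-control scale (-0.02). UQCRB, which helps bind ubiquinone, rose by 0.20, to 0.08, 0.09 and 0.14 in MAP30 arrays, against -0.11, -0.11 and -0.07 in control arrays. On the hybridization-control scale it was at -0.01 and did not pass. UQCRH, the hinge protein, read -0.00, 0.02 and 0.04 with MAP30, against -0.00, -0.07 and -0.11 in control (0.08). Its copy UQCRHL read -0.00, -0.09 and 0.01 with MAP30, against 0.00, -0.01 and 0.09 in control (-0.06). Neither passed, their groups overlapped, and the copies are near-identical, so their signals are uncertain.

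In complex IV the nuclear subunits surround the mitochondrially encoded core, and several exist as widely expressed and tissue-restricted isoforms. Among the 10 widely expressed genes 6 fell and the other 4 did not pass, with a median of -0.13. Of all genes 30.6% fell and 26.9% rose. COX6B1, which faces the intermembrane space, read -0.22, -0.16 and -0.16 with MAP30, against 0.16, 0.20 and 0.16 in control (1.28-fold lower, limma adjusted p = 5.49e-05). COX6C read -0.12, -0.13 and -0.14 with MAP30, against 0.25, 0.11 and 0.19 in control (-0.31), and the groups lay apart in both genes. COX5B (-0.23) and COX7C (-0.20) fell less. COX4I1, at -0.13, -0.06 and -0.05 with MAP30, against 0.05, 0.10 and 0.08 in control, fell by 0.16. COX7B, at -0.06, -0.02 and -0.06 with MAP30, against 0.08, 0.02 and 0.04 in control, fell by 0.09. COX4I1 was at 0.01 and COX7B at 0.07 on the poly-A-control scale, neither passing, and the call of COX7B was lost without any single array (-0.11 to -0.08). In COX4I1 a single probe set of 3 was called, at -0.34, and the others stood at -0.07 and -0.06. With the median over probe sets COX4I1 (-0.08) and COX7B (-0.09) were not called. COX5A (-0.06), COX8A (-0.07), COX6A1 (-0.02) and COX7A2 (0.01) did not pass. COX6A1 read -0.06, 0.02 and -0.01 with MAP30, against 0.01, -0.09 and 0.07 in control, and COX7A2 read 0.04, -0.02 and -0.03 with MAP30, against -0.02, -0.02 and -0.00 in control, so that groups overlapped in both.

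Of the 6 tissue-restricted isoforms 2 were higher and 2 lower (33.3% each), near the 26.9% and 30.6% of all genes. Their standard errors were 0.05 to 0.10. On the hybridization-control scale 1 was higher and 3 lower, where 17.0% and 63.7% of all genes were. On the poly-A-control scale 3 were higher and 0 lower, where 49.1% and 20.7% of all genes were. COX8C, an isoform known from testis, read 0.28, 0.25 and 0.28 with MAP30, against -0.43, -0.30 and -0.25 in control. It was 1.52-fold higher (0.60 ± 0.05 SE, limma adjusted p = 1.95e-05), on a single probe set, of class _at. Its widely expressed counterpart COX8A read -0.06, -0.05 and -0.02 with MAP30, against 0.04, 0.02 and 0.03 in control. COX6A2, the heart and muscle isoform, read 0.20, 0.02 and 0.08 with MAP30, against -0.14, -0.04 and -0.02 in control. That rise (0.17) was lost without MAP30 replicate 1 or 3 or control replicate 1 or 2 (0.12 to 0.18), and on the hybridization-control scale (-0.04). COX7A1, of muscle, read -0.19, -0.03 and -0.33 with MAP30, against 0.10, 0.03 and 0.08 in control (-0.26), and the call was lost without control replicate 1 (-0.24). COX7B2 fell by 0.22, to -0.08, -0.05 and -0.33 in MAP30 arrays, against 0.05, 0.07 and 0.08 in control arrays, a call lost without any 1 of the control replicates (-0.23 to -0.22). COX4I2 (0.06) and COX6B2 (0.02) did not pass. In COX4I2 a single MAP30 array stood at 0.30 and the other MAP30 arrays at -0.04 and -0.06, against -0.08, 0.04 and 0.06 in control. COX6B2 read 0.05, -0.09 and 0.04 with MAP30, against -0.06, -0.05 and 0.06 in control. COX7A2L, a factor that joins complexes III and IV, read -0.08, -0.04 and -0.01 with MAP30, against 0.13, 0.03 and 0.04 in control (-0.11, limma adjusted p = 0.0588) and did not pass.

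ATP synthase had the largest single fall. ATP5F1C, the gamma subunit that turns inside the catalytic head, read -0.44, -0.50 and -0.53 with MAP30, against 0.45, 0.46 and 0.50 in control. It was 1.95-fold lower (-0.96 ± 0.04 SE, limma adjusted p = 3.84e-07), and its 3 probe sets lay close together at -1.05, -0.96 and -0.87. The other subunits of the head moved less: ATP5F1A (alpha) fell by 0.32, ATP5F1E (epsilon) by 0.19 and ATP5F1D (delta) by 0.17. ATP5F1B, the catalytic beta subunit, rose by 0.10, to 0.06, 0.02 and 0.06 in MAP30 arrays, against -0.04, -0.09 and -0.03 in control arrays. That call was lost without any single array (0.08 to 0.11) and turned to -0.11 without passing on the hybridization-control scale.

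The genes ATP5MC1, ATP5MC2 and ATP5MC3 encode the same mature c subunit of the rotating ring with different import sequences, and all 3 fell, unequally. ATP5MC2 read -0.42, -0.39 and -0.35 with MAP30, against 0.35, 0.36 and 0.36 in control (1.68-fold lower). ATP5MC1 read -0.14, -0.16 and -0.15 with MAP30, against 0.14, 0.15 and 0.14 in control (1.22-fold lower). ATP5MC3 read -0.11, -0.09 and -0.10 with MAP30, against 0.11, 0.13 and 0.09 in control (1.16-fold lower). The fold change of ATP5MC2 (-0.75) stood apart from those of ATP5MC1 (-0.29) and ATP5MC3 (-0.21), each with a standard error of 0.03; that difference was not tested. On the poly-A-control scale ATP5MC3 (-0.05) did not pass.

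In the peripheral stalk, which holds the head still, ATP5PF fell 1.57-fold (-0.65), ATP5PD by 0.25 and ATP5PB by 0.11, and ATP5PO (-0.07), the oligomycin sensitivity conferring protein, did not pass. The call of ATP5PB was lost without control replicate 2 (-0.10), and on the poly-A-control scale its value was 0.05 without passing. Only 1 of its 4 probe sets was called (-0.36), and their median (-0.08) did not pass. Of the small membrane subunits ATP5MF (-0.40) and ATP5ME (-0.23) fell, and ATP5MG (-0.02) and ATP5MJ (-0.02) did not pass. With only _at and _a_at probe sets averaged, ATP5MF stood at 0.03 and did not pass. ATP5MGL, a paralog of ATP5MG, fell by 0.68 with a wide spread: -0.23, -0.19 and -0.65 in MAP30 arrays, against 0.43, 0.19 and 0.34 in control arrays.

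ATP5MK rose by 0.20, to 0.12, 0.09 and 0.08 in MAP30 arrays, against -0.10, -0.13 and -0.09 in control arrays. Only 1 of its 3 probe sets was higher, at 0.93, and the other probe sets were lower, at -0.18 and -0.15, so the median over probe sets was -0.14. Such opposite calls within a gene occurred in 5 of the 49 subunit genes with several probe sets (10.2%, against 7.24% of all genes with several), namely ATP5MJ, ATP5MK, SDHA, UQCRB and UQCRH. In each of these 5 the highest probe set was of class _at: 0.59 for ATP5MJ, 0.93 for ATP5MK, 0.27 for SDHA, 0.71 for UQCRB and 0.54 for UQCRH. Over all subunit genes 11 of 31 probe sets of class _at were higher and 7 lower, where 2180 and 2584 of all 10779 such probe sets were. Of 71 of class _a_at 9 were higher and 40 lower, where 6344 and 6485 of all 21696 were. These counts cover probe sets with exactly 1 gene symbol, of which 26.5% were higher and 30.2% lower, whatever their class. The class _at is meant to match a single transcript and the class _a_at several transcripts of a gene.

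**Figure D4:**
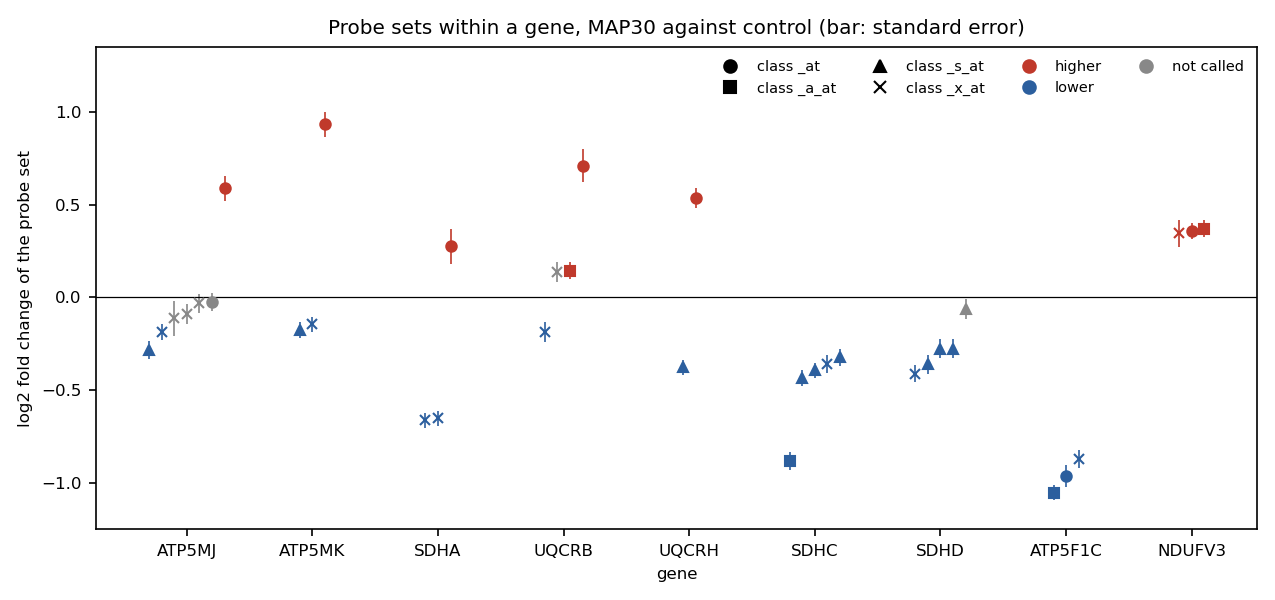
Log2 fold change (MAP30 over control, y axis) of each probe set within 9 subunit genes; marker shape gives the probe set class, colour the call and bars the standard error. In ATP5MJ, ATP5MK, SDHA, UQCRB and UQCRH the uppermost probe set is of class _at and called higher while others are called lower, whereas the 3 probe sets of ATP5F1C lie together near -0.96.

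Around the subunits, regulators of their transcription were called in both directions. YY1 read -0.47, -0.42 and -0.42 with MAP30, against 0.41, 0.46 and 0.42 in control (1.83-fold lower, limma adjusted p = 4.27e-07, 7 of 7 probe sets lower). NRF1 read -0.33, -0.35 and -0.15 with MAP30, against 0.22, 0.13 and 0.22 in control (1.38-fold lower, 3 of 4 probe sets lower). PPARGC1A, the coactivator of mitochondrial biogenesis, was higher, at 0.52, 0.48 and 0.56 with MAP30, against -0.49, -0.47 and -0.62 in control (2.06-fold). GABPB2, a subunit of GABP, rose 2.53-fold, and TFAM, which packages mitochondrial DNA, did not pass (-0.05). Of 20 regulators and mitochondrial DNA expression genes measured, 8 rose and 6 fell (40% and 30%, against 26.9% and 30.6% of all genes). The split was 6 higher to 11 lower on the hybridization-control scale, where 17.0% of all genes were higher and 63.7% lower. It was 13 higher to 3 lower on the poly-A-control scale, where the shares of all genes were 49.1% and 20.7%.

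Motifs of these factors were looked for in 300-base promoter windows, available for 66 of the 81 subunit genes (15 had none) and reaching from 250 bases before the start to 50 after it, on both strands; no motif contains another. The NRF1 motif (GCGCA, any base, GCGC) was in 24.2% of the subunit genes, against 10.1% of the genes on the array with a window and 6.98% of all genes with one. The ETS motif CCGGAAG was in 30.3%, against 16.9% and 12.2%, and the YY1 motif ATGGCGGC in 16.7%, against 5.50% and 3.67%. Of the 16 genes with the NRF1 motif 9 fell, 1 rose and 6 did not pass. Among all 66 subunit genes with a window 40 fell, 8 rose and 18 did not pass. The counts were 11, 2 and 7 of the 20 genes with the ETS motif, and 4, 1 and 6 of the 11 with the YY1 motif. Of all genes 30.6% were lower and 26.9% higher. No difference between genes with and without a motif was tested. The median log2 fold change was -0.24 in the 16 genes with the NRF1 motif and -0.19 in the 50 without, -0.17 and -0.20 for the ETS motif (20 with), and -0.04 and -0.21 for YY1 (11 with). The promoters of ATP5F1C, which fell, and of COX8C, which rose, hold the NRF1 motif. So does that of SDHA, which fell in the mean of probe sets that disagreed in direction. The promoter of NDUFB2, which fell, does not hold it in the stretch shown.

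The assembly factors, which build the complexes without staying in them, were called in both directions, and their counts are to be read against the 26.9% of all genes that were higher and the 30.6% that were lower. For complex I 8 of 19 rose (42.1%) and 6 fell (31.6%; median 0.04), with NDUFAF5 (0.75) and NDUFAF1 (0.74) higher and ACAD9 (-0.65) and NUBPL (-0.58), an iron-sulfur carrier, lower. For complex II 3 of 4 fell (75%), led by SDHAF3 (-0.79) and SDHAF4 (-0.37). For complex III 2 of 6 rose and 2 fell (33.3% each). TTC19 and UQCC1 rose 2.35-fold and 2.32-fold, the largest rises of the lists for assembly, while LYRM7 (-0.65) and UQCC3 (-0.46) fell. TTC19 read 0.59, 0.62 and 0.64 with MAP30, against -0.61, -0.64 and -0.60 in control. For complex IV 5 of 21 rose (23.8%) and 11 fell (52.4%; median -0.15): COX14 was 2.19-fold lower and COA3 1.66-fold lower, and SCO1 (0.74), a copper chaperone, and COA7 (0.53) were higher. For complex V 2 of 6 rose and 2 fell (33.3% each): ATP5IF1, the inhibitor of ATP synthase, was 1.58-fold lower, ATPAF1 (-0.19) was lower, although higher in 3 of 5 probe sets, and TMEM242 (0.37), which helps build the c ring, and TMEM70 (0.21) were higher. ATPAF1 was not called on the poly-A-control scale (-0.03), and TMEM70 was not on the hybridization-control scale (0.00). The median of complex I factors turned to -0.17 with hybridization-control centring, and that of complex IV factors to 0.01 with poly-A-control centring.

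Among electron carriers, ubiquinone synthesis and carrier genes 6 of 19 rose and 6 fell (31.6% each, against 26.9% and 30.6% of all genes). COQ5 (0.79) and COQ8B (0.77) were higher and COQ8A (-0.83) and COQ3 (-0.60) lower, all of ubiquinone synthesis. CYC1, the cytochrome c1 of complex III that the symbol rule did not take in, fell by 0.26 and was called lower on all 3 scales. CYCS, which encodes cytochrome c, rose by 0.18 but stood at -0.02 without passing on the hybridization-control scale. On that scale 4 of these carrier genes were higher and 12 lower (17.0% and 63.7% of all genes). Centred on the poly-A controls 11 were higher and 5 lower (49.1% and 20.7% of all genes). The next list held genes of the citric acid cycle, the pyruvate dehydrogenase complex and pyruvate carboxylase. In it 10 of 17 genes fell (58.8%) and 4 rose (23.5%), against 30.6% and 26.9% of all genes. IDH2 was 2.39-fold lower, and DLD, the shared dehydrogenase subunit, 1.51-fold lower, while PDHX (0.53) and SUCLG2 (0.36) were higher, although SUCLG2 was higher in 1 of 3 probe sets and lower in the others. On the poly-A-control scale 6 genes of this list were higher and 5 lower, where 49.1% and 20.7% of all genes were. Of 7 other inner membrane and electron transfer genes 6 fell (85.7%), with GPD2 (1.98-fold lower) and SQOR (1.72-fold lower), which feed electrons to ubiquinone, and NDUFAB1 (-0.36), the acyl carrier subunit of complex I.

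**Figure D5:**
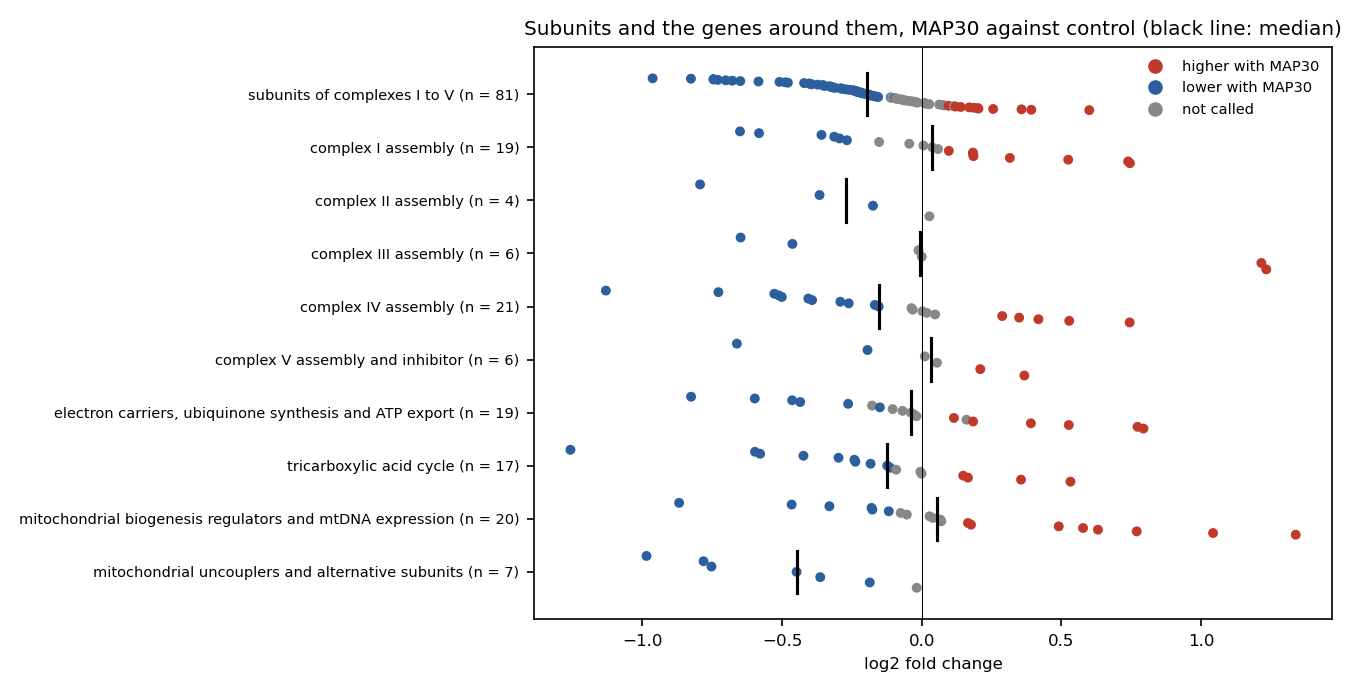
Log2 fold change (MAP30 over control, x axis) of every measured gene of the subunits and of the lists around them, with a black line at each median; points are genes, coloured by call. The subunits spread from -0.96 to 0.60, and genes beyond 1.0 in either direction appear only in the lists for assembly of complexes III and IV, the citric acid cycle and the regulators.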

How the data were processed

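Per the labels' protocols, total RNA of 6 samples was turned into biotin-labelled amplified RNA with a 3' IVT kit and put on expression arrays. The authors deposited log2 values for 49395 probe sets; the submitters' processing notes name MAS5 and RMA without their role, and the base 2 is taken from RMA. Each probe set has a median of 0 over the arrays, so levels were removed and filters on dim probes were not possible. Precision is limited by having 6 arrays.

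Probe sets with exactly 1 symbol in the platform annotation (44988) were averaged per gene. All 81 subunit genes matched the RefSeq gene table (GRCh38.p14). MAP30 was compared with control by limma 3.58.1 (R 4.3.3; lmFit and eBayes, two-sided) over 18132 genes. The fit was tested on simulated data. Tables and figures used Python 3.11.15, pandas 2.3.3, numpy 2.4.6 and matplotlib 3.10.9.

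The subunit genes, their lists and the alternatives were chosen with earlier results of these data known. Per-array values are given for the 2 largest called rises and falls of each complex, complex II, isoform families and core subunits of complex I; from each surrounding list up to 2 called genes each way are named. Other genes given per array or by name (among them CYC1, CYCS, NDUFAB1 and TFAM), the modules within complexes, the motifs, the printed promoters and the size of 1.5-fold were chosen after values were seen. The alternatives were the median over probe sets, probe sets of class _at or _a_at, centring on hybridization controls, poly-A controls or the array median, quantile normalization, a replicate block, robust variances and leaving out each array.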

Additional observations from a re-analysis of the deposited data

How the results depend on the processing

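Scaling moved the counts most. Centred on the hybridization controls, all genes held 3087 higher and 11558 lower (median log2 fold change -0.23) and subunit genes 3 higher (median -0.40). By complex this gave 2 higher for I (median -0.44), a median of -0.56 for II, 0 higher and 6 lower for III (-0.30), 1 and 14 for IV (-0.30), and 0 higher for V (-0.43). Centred on the poly-A controls, 8906 genes were higher (0.14), and subunit genes held 25 higher and 28 lower (-0.031). By complex this gave 12 higher and 15 lower for I (-0.071), a median of -0.18 for II, 2 and 1 for III (0.076), 7 and 2 for IV (0.069), and 4 and 7 for V (-0.060). With each array centred on its median, medians were -0.0018 for all genes, -0.18 for subunit genes and -0.077 for complex IV. Quantile normalization gave 0.0047, -0.17 and -0.071, with -0.20 for complex I, -0.19 for V and 2 higher for III. The median over probe sets gave -0.21 for complex I, -0.077 for IV and 0 higher for V. Probe sets limited to classes _at and _a_at gave -0.28 for complex I, 1 higher and 1 lower for II, 2 higher for III, -0.080 for IV and -0.19 for V. Robust variances gave 11 higher and 49 lower subunit genes.

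Signs turned in single genes, with those called as deposited or under the alternative given before those called in neither. On the hybridization-control scale ATP5F1B (-0.11), ATP5MK (-0.0055), COX6A2 (-0.038), COX6B2 (-0.19), COX7A2 (-0.20), NDUFA10 (-0.087), NDUFB11 (-0.18), NDUFS1 (-0.069), NDUFS4 (-0.19), NDUFS7 (-0.021) and UQCRB (-0.0082) were below 0, as were the uncalled COX4I2 (-0.15), NDUFA13 (-0.094), NDUFS3 (-0.13) and UQCRH (-0.13). On the poly-A-control scale ATP5MG (0.14), ATP5MJ (0.14), ATP5PB (0.053), COX4I1 (0.0079), COX5A (0.10), COX6A1 (0.15), COX7B (0.069), COX8A (0.093), NDUFA11 (0.13), NDUFA9 (0.12) and NDUFC2 (0.0016) were above 0, as were the uncalled ATP5PO (0.093), COX7A2L (0.055), UQCR11 (0.072), UQCRC1 (0.080) and UQCRHL (0.11). These turns follow from moving every gene by the same amount. With _at and _a_at probe sets ATP5MF (0.033), ATP5MJ (0.28) and SDHA (0.27) turned, with the uncalled COX6A1 (0.14) and COX7A2 (-0.075). With the median over probe sets ATP5MK (-0.14) turned, with the uncalled ATP5MG (0.037). These rest on which probe sets were averaged. Quantile normalization turned 3 uncalled genes and median centring 1, to values of 0.0010 to 0.012.

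Leaving out single arrays gave 4555 to 4776 genes higher, 5189 to 5452 lower and a median of -0.03 to -0.01, and among subunit genes 9 higher, 47 to 49 lower and -0.20 to -0.18. Complex I held 5 to 6 higher and 23 lower (-0.26 to -0.22), II 0 and 3 (-0.38 to -0.32), III 1 and 3 (-0.10 to -0.07), IV 1 to 2 and 5 to 7 (-0.11 to -0.076), and V 1 and 12 to 13 (-0.23 to -0.21). No called subunit gene changed sign without 1 array; between 1 and 5 uncalled genes did.

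Same-numbered arrays of the groups did not deviate together (correlations of -0.04, 0.07 and 0.01). The labels do not say whether same-numbered samples shared a culture or a day, and these correlations cannot settle it. With a replicate block 10 subunit genes were higher and 49 lower, 1 higher in complex IV and 1 in complex V. ATP5F1B, COX6A2 and COX7B no longer passed and NDUFA13 did.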

Other observations

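Outside the gene values, 12 probe sets named a subunit gene, or a readthrough transcript of one, together with another gene. Of these 10 were called lower with MAP30 by limma and 2 were not called. Among probe sets with exactly 1 gene symbol, which leave these 12 out, 30.2% were lower. The lowest, shared by GCSH, NDUFS1, LOC641746 and GCSHP3, read -0.87, -0.86 and -0.74 with MAP30, against 0.74, 0.77 and 0.75 in control (log2 fold change -1.57), while the probe sets of NDUFS1 alone gave 0.14. Both probe sets shared by COX7A2 and TMEM30A were below 0, at -1.11 and -0.34, where COX7A2 alone was at 0.01. The probe sets that SDHA shares with pseudogenes stood at -0.68 and -0.36.

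Subunit genes with 1 probe set were called lower in 25 of 32 (median -0.29) and those with several in 25 of 49 (median -0.11). Over all genes 24.3% of those with 1 probe set and 34.1% of those with several were lower.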
